A study of Equus caballus with 28 samples.

Results

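Yolk sac (YS) fluid of 5 horse embryos was compared with the endometrium of the 5 mares that carried them, 10 of the 28 libraries of the study. All samples came from Warmblood mares 13 days after ovulation, in cycles in which the mare was inseminated and found pregnant, with ovulation induced by hCG. YS fluid was drawn by needle from the flushed embryo, and the endometrium was a biopsy that holds epithelium, stroma, vessels and blood together. The labels name the fluid only as yolk sac, and the sampling section of the study calls it fluid. Embryonic tissue and uterine fluid (UF) of the same pregnant cycles, 5 libraries each, are used only to place the miRNAs named here. RNA of YS fluid and UF was extracted with a kit for serum and plasma, and RNA of endometrium and embryo with a tissue kit, so kit and sample type cannot be told apart between YS fluid and endometrium. The libraries were chosen by their labels and not by any measured value.

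MicroRNAs (miRNAs) are short RNAs that guide a silencing complex to partly matching messenger RNAs. Many are transcribed in clusters from 1 primary transcript, and members of a family share the seed that selects targets. The cluster of miR-302 and miR-367 and that of miR-371 and miR-372 are hallmarks of pluripotent cells and early embryos. The miR-17/92 clusters promote proliferation, while the let-7 family accumulates as cells differentiate and is abundant in adult tissues. Other miRNAs mark cell types, such as miR-143 and miR-145 in smooth muscle, miR-126 in endothelium, miR-142 and miR-223 in white blood cells, miR-451 and miR-486 in red blood cells, and miR-122 in liver. Extracellular miRNAs in fluids are carried in vesicles or bound to proteins, and the vitelline fluid of the early equine conceptus fills the cavity lined by yolk sac endoderm. Mature sequences were not used here, so miRNAs are grouped by name.

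The YS fluid libraries were shallow. They held 7585, 14455, 13066, 4352 and 14531 miRNA reads in replicates 1 to 5, against 280065 to 590593 in endometrium. A floor of 3 reads, which covers counting error only, corresponds to between 101 and 436 normalized CPM in YS fluid and to between 11.7 and 21.9 in endometrium. Normalized CPM here is the read count scaled to the size of the library as adjusted by the trimmed mean of M values (TMM). Of the 341 miRNAs tested, 172 had an endometrial mean under the floor of the deepest YS fluid library, so that at an equal level fewer than 3 reads would be expected in each YS fluid library. Among these, 21 were called lower from at most 2 YS fluid reads in all, 16 of them from none, and 0 of the 21 held under every scaling described below. Of the 109 miRNAs with an endometrial mean at or above the floor of the shallowest YS fluid library, 70 were called lower, 9 higher and 30 neither.

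YS fluid replicates 2 and 4 stood apart from the other 3. Replicate 2 held 26.4% of its reads on the miR-302, miR-367, miR-371 and miR-372 families, against 3.49 to 7.16% in the others, and more of miR-221 and of the imprinted DLK1-DIO3 locus. Replicate 4, the shallowest, held 11.6% on the let-7 family, against 1.16 to 3.39% in the others. Where leaving out either library changed the call of a named miRNA, the value without it is given.

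YS fluid and pregnant endometrium differed in 53.1% of the 341 miRNAs tested. A miRNA was called when edgeR's quasi-likelihood test gave a false discovery rate (FDR, after Benjamini and Hochberg) no higher than 0.05 and the levels differed at least 2-fold. Of the miRNAs tested, 61 were higher in YS fluid (17.9%) and 120 were lower (35.2%). These shares are the background for the counts of list members that follow. The 61 comprised 36 known horse miRNAs and 25 predicted ones, which fall into 15 groups of near-identical counts, and the 120 comprised 108 known and 12 predicted miRNAs in 8 groups. The values of the 5 YS fluid and 5 endometrial libraries did not overlap for 171 of the tested miRNAs (50.1%), among them 39 of those higher and 112 of those lower.

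This split depended on the scaling between the libraries. TMM left a median log2 fold change of -0.84 over all tested miRNAs, or -0.077 with miRNAs that had no read in one group set to a bound computed from 3 reads per library. Where that bound fell short of any difference, the value was set to no change, here and in the list medians given at the bound. Relative to TMM, fold changes shifted upwards on the log2 scale by 0.79 with RLE size factors, 0.87 with DESeq2, 1.38 with TMM computed from abundant miRNAs and 1.99 with library totals. The numbers higher and lower were 78 and 87 with RLE, 78 and 79 with DESeq2, 100 and 69 with abundant miRNAs, and 119 and 59 with library totals. With the endometrium thinned to the YS fluid depth, 76 were higher and 48 lower of 204 tested. No miRNA was called in opposite directions by TMM and any of these. Under TMM, RLE, DESeq2, abundant miRNAs and library totals alike, 58 miRNAs were higher (17%) and 59 lower (17.3%), and these are the ones called under every scaling in what follows. Of the 3 others called higher, eca-miR-371-5p, eca-miR-372 and eca-miR-380, each was called by the 4 edgeR scalings and DESeq2 gave no adjusted p. By comparison, 61 of the 120 called lower were lost under at least 1 other scaling.

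**Figure D1:**
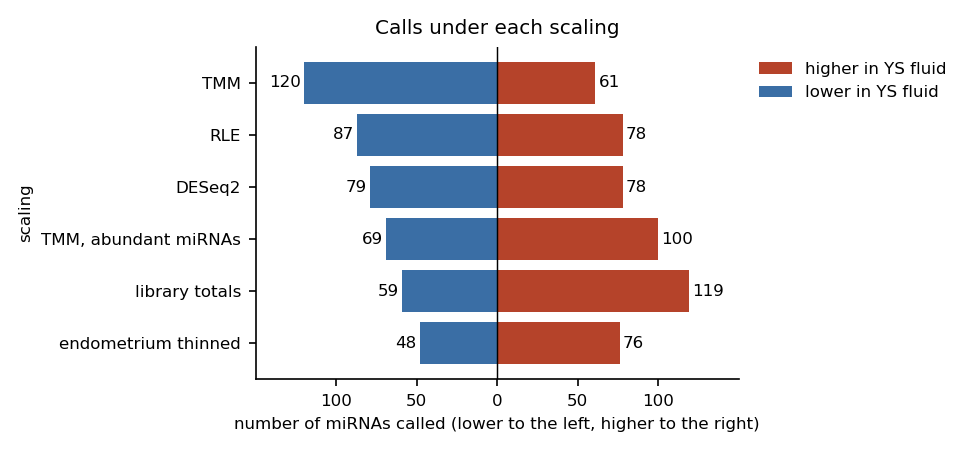
Number of miRNAs called lower (bars to the left) and higher (bars to the right) in YS fluid than in pregnant endometrium under 6 scalings. With TMM 120 miRNAs are lower and 61 higher, and with library totals 59 are lower and 119 higher.

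**Figure D2:**
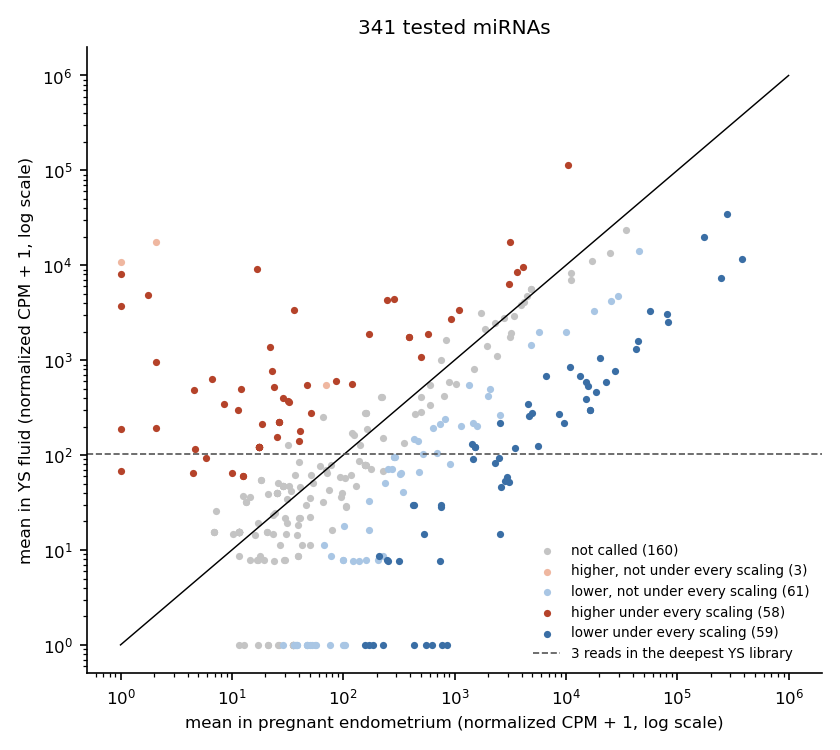
Mean normalized CPM plus 1 of each of the 341 tested miRNAs in pregnant endometrium (horizontal, log scale) and YS fluid (vertical, log scale), 5 libraries a group, coloured by call. The diagonal marks equal means and the dashed line 3 reads in the deepest YS fluid library. Of the 120 miRNAs called lower, the 59 called under every scaling are drawn in the darker shade.

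At equal depth, more miRNAs were detected in YS fluid than in endometrium, with every predicted miRNA counted separately. With every library thinned to 4352 reads, 186, 180.7, 176, 173 and 169 miRNAs were expected in YS fluid replicates 1 to 5 and 129.2, 135, 123.9, 138 and 136.1 in the endometrial ones, means of 177 ± 6.40 and 132.5 ± 5.87 (SD, n = 5, two-sided exact permutation test p = 0.00794, adjusted p = 0.00794 over 3 measures). The groups did not overlap, and this p is the smallest that 5 against 5 allows. The 10 most abundant miRNAs of a library took 58.7 ± 3.31% of its reads in YS fluid and 71.6 ± 3.63% in endometrium (SD, n = 5, two-sided exact permutation test p = 0.00794, adjusted p = 0.00794). Predicted miRNAs took 5.35 ± 0.865% of the reads in YS fluid and 0.924 ± 0.163% in endometrium (SD, n = 5, two-sided exact permutation test p = 0.00794, adjusted p = 0.00794). The difference of 44.4 in miRNAs detected fell to 16.5 with known miRNAs only, for which libraries were thinned to the smallest total of known-miRNA reads, a slightly lower depth. It also fell to 16.5 when a miRNA needed at least 3 reads to count as detected. Most of it thus rested on predicted miRNAs and on miRNAs with 1 or 2 reads. Predicted miRNAs form groups of near-identical counts, the largest of 18, and no number detected was computed with such groups merged.

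The families that filled the libraries differed between fluid and tissue. eca-miR-92a, a member of the miR-17/92 clusters, was the most abundant miRNA in all 5 YS fluid libraries, with 18.8, 17.6, 21.4, 23.8 and 31.3% of the reads of replicates 1 to 5. In endometrium eca-let-7a led in 4 libraries and eca-miR-21 in the other. By mean normalized CPM the order in YS fluid was eca-miR-92a, eca-miR-21, eca-miR-200b, eca-miR-26a and eca-miR-371-5p, and in endometrium eca-let-7a, eca-miR-21, eca-let-7c, eca-miR-26a and eca-let-7f. The position of eca-miR-371-5p in the YS fluid order rested on replicate 2.

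**Figure D3:**
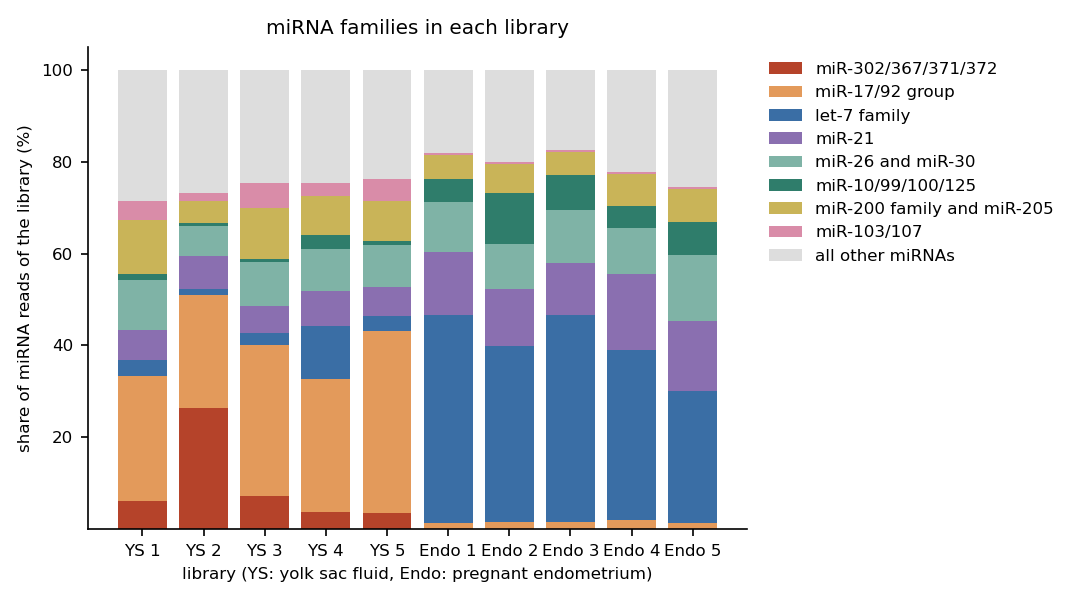
Share of the miRNA reads of each library (vertical axis, %) taken by 8 miRNA families and by all other miRNAs, in the 5 YS fluid and 5 pregnant endometrial libraries (horizontal axis). The miR-17/92 group takes 24.7 to 39.6% in YS fluid and the let-7 family 28.8 to 45.2% in endometrium.

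miRNAs of pluripotent cells were high in YS fluid and almost without reads in endometrium. All 7 tested members of the miR-302, miR-367, miR-371 and miR-372 families were called higher, 5 of them under every scaling, and eca-miR-371-3p, with 2 reads, was not tested. Together they held 6.10, 26.4, 7.16, 3.65 and 3.49% of the reads of YS fluid replicates 1 to 5 and at most 0.000592% in endometrium. The median log2 fold change of the list was 11.58, or 8.87 with members at their bound. In the 5 endometrial libraries together the 8 members had 1 read each of eca-miR-302a, eca-miR-302c and eca-miR-371-5p. The 7 tested members thus passed the low-count filter through YS fluid, so that a call could only be higher.

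eca-miR-302d had 6950.0, 8188, 14868, 3928 and 6763 normalized CPM in YS fluid replicates 1 to 5 and 0 reads in all 5 endometrial libraries. Its level in YS fluid was 8139 ± 4072 normalized CPM (SD, n = 5), at least 467-fold higher than the mean floor of 3 reads in endometrium (FDR 1.42e-07). eca-miR-302b had 3942, 4507, 5609, 1891 and 2725 normalized CPM in YS fluid and 0 reads in endometrium, a level at least 214.4-fold higher (FDR 1.42e-07). Both are products of the cluster of miR-302 and miR-367, and each was present in every YS fluid library, replicate 4 with 4352 reads included.

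eca-miR-302a had 4409, 4266, 9221, 2473 and 3869 normalized CPM in YS fluid and 1 read in endometrium, a ratio of pooled scaled reads of 4714 (95% exact binomial interval 843 to 186528). eca-miR-302c had 10, 36, 43, 4 and 23 reads against 1, a ratio of 941 (95% exact binomial interval 166 to 37495). eca-miR-367, from the same cluster, was scarce, with 1, 2, 1, 1 and 1 reads in YS fluid and 0 in endometrium. Its YS fluid mean of 67.6 normalized CPM lay under the floor of 3 reads in each of these libraries, so no fold is given. All 5 miRNAs of the cluster had reads in each of the 5 YS fluid libraries.

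eca-miR-371-5p and eca-miR-372 had the largest fitted fold changes of all known miRNAs, a rank that rested on YS fluid replicate 2, which dominated both. eca-miR-371-5p had 95, 2065, 49, 61 and 53 reads in YS fluid and 1 in endometrium (log2 fold change 12.88, standard error 1.47, FDR 2.35e-06). eca-miR-372 had 62, 1220, 69, 36 and 33 reads in YS fluid and 0 in endometrium, at least 622-fold higher (FDR 2.19e-05). Without replicate 2 the log2 fold changes were 10.52 (FDR 7.81e-12) and 11.04 (FDR 1.08e-10), so the calls held while both fell below eca-miR-302d, at 12.67, and eca-miR-302b, at 11.47. Replicate 2 was not set apart in the miR-302 cluster, where replicate 3 held the most reads of eca-miR-302d, eca-miR-302b and eca-miR-302a.

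The miR-17/92 group, which comprises the miR-17/92 cluster and its paralogues with miR-106a and miR-363 and with miR-106b and miR-25, was raised in part. Of 14 known members, 13 were tested, 9 were higher in YS fluid, all 9 under every scaling, 1 was lower and 3 were not called, with a median log2 fold change of 1.66. The group held 27.3, 24.7, 33.0, 28.98 and 39.6% of the reads in YS fluid replicates 1 to 5 and 1.42, 1.45, 1.45, 2.05 and 1.27% in endometrium. The group includes eca-miR-92a, with 73857, 87351, 107228, 150571 and 153151 normalized CPM in YS fluid and 9961, 7664, 14248, 12584 and 7338 in endometrium (log2 fold change 3.46, standard error 0.38, FDR 1.82e-06). Every YS fluid value lay above every endometrial one.

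eca-miR-20b, from the X-linked paralogue of the cluster, had 156, 186, 374, 57 and 250 reads in YS fluid and 4, 5, 0, 2 and 2 in the far deeper endometrial libraries (log2 fold change 9.12, standard error 0.64, FDR 4.53e-08). Its neighbours in that cluster, eca-miR-363 and eca-miR-106a, had log2 fold changes of 5.43 and 4.11 and did not overlap between the groups. eca-miR-17 was at 4452 ± 1942 normalized CPM in YS fluid and 284 ± 51.5 in endometrium (SD, n = 5, log2 fold change 3.97, standard error 0.38, FDR 5.84e-07). Counts of eca-miR-17 and eca-miR-106a differed over the 28 libraries by a Bray-Curtis dissimilarity of only 0.0309, so reads of the pair may be shared and neither value is certain. eca-miR-18a was also higher, with a log2 fold change of 5.09, as were eca-miR-19b, eca-miR-20a and eca-miR-93 with 1.66, 1.57 and 1.06. YS fluid replicate 3 held the most of eca-miR-17 and eca-miR-106a, and without it their log2 fold changes were 3.35 and 3.48.

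The remaining members did not follow. eca-miR-25 was at 6927 ± 1062 normalized CPM in YS fluid and 11193 ± 740.4 in endometrium (SD, n = 5, log2 fold change -0.69, standard error 0.28, FDR 0.0505). It was called higher with library totals, at 1.32 (FDR 7.04e-04), and thinning, at 1.09 (FDR 0.0144). It was called lower in 4 alternatives, for example without YS fluid replicate 5, at -1.15 (FDR 0.00632), so its direction was not settled. eca-miR-106b, its cluster neighbour, was lower under TMM, at -1.71, with 26 reads in YS fluid, but not under every scaling. eca-miR-92b and eca-miR-19a had log2 fold changes of -1.10 and -0.51 and were not called.

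miRNAs of endoderm and liver were higher in YS fluid. All 3 tested members, eca-miR-122, eca-miR-192 and eca-miR-194, were called higher under every scaling, with a median log2 fold change of 2.24, and eca-miR-215, with 2 YS fluid reads and 0 in endometrium, was not tested. eca-miR-122, the dominant miRNA of hepatocytes, had 5809, 2821, 3765, 2619 and 1918 normalized CPM in YS fluid and 56.2, 43.6, 27.2, 12.3 and 36.5 in endometrium (log2 fold change 6.55, standard error 0.51, FDR 1.30e-07). The groups did not overlap, and without YS fluid replicate 1 the log2 fold change was 5.87. eca-miR-192, which is abundant in gut and liver epithelium, had 2438, 688, 3727, 291 and 2321 normalized CPM in YS fluid and 894, 643, 218, 399 and 716 in endometrium (log2 fold change 1.76, standard error 0.55, FDR 0.0134). Replicates 2 and 4 fell within the endometrial range, and the call was lost when YS fluid replicate 1, 3 or 5 or endometrial replicate 3 or 4 was left out. Together the list held 2.29, 0.754, 1.74, 0.506 and 0.922% of the reads in YS fluid and at most 0.0520% in endometrium.

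eca-miR-103 and eca-miR-107a, which regulate lipid and glucose metabolism, were also higher, with log2 fold changes of 1.21 (FDR 0.00785) and 1.25 (FDR 0.00686), and the third member of the list, eca-miR-107b, was not called at -0.95. Levels of eca-miR-103 were 8662, 4473, 13562, 8874 and 12449 normalized CPM in YS fluid and 4918, 3396, 4738, 4148 and 3585 in endometrium, so that YS fluid replicate 2 overlapped with the endometrial range. The 2 miRNAs had near-identical counts, with a Bray-Curtis dissimilarity of 0.0609, and both calls were lost without a filter on low counts and when YS fluid replicate 1, 3 or 5 or endometrial replicate 2 was left out. eca-miR-652 was at 1452, 413, 4226, 436 and 2826 normalized CPM in YS fluid and 149.98, 104, 155.5, 159.8 and 277 in endometrium (log2 fold change 3.50, standard error 0.60, FDR 1.42e-04) without overlap, and YS fluid replicates 2 and 4 were closest to the endometrium. Without YS fluid replicate 3 its log2 fold change was 2.70.

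Chosen after their values were seen, eca-miR-378 and eca-miR-767-5p were also higher under every scaling. eca-miR-378, which is encoded within a gene of mitochondrial metabolism, was at 17467 ± 5537 normalized CPM in YS fluid and 3127 ± 509.9 in endometrium (SD, n = 5, log2 fold change 2.48, standard error 0.33, FDR 1.12e-05). eca-miR-767-5p had 5, 3, 1, 2 and 7 reads in YS fluid and 0 in endometrium, at least 10.6-fold higher by its mean. It passed the low-count filter through YS fluid alone, so that a call could only be higher under any scaling. The YS fluid libraries with 1 and 2 reads lay under the floor of 3 reads.

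The let-7 family showed the opposite pattern. All 7 members, which include eca-miR-98, were lower in YS fluid under every scaling, with log2 fold changes between -5.20 and -4.52 and a median of -5.11. The family held 3.39, 1.16, 2.50, 11.6 and 3.26% of the reads in YS fluid replicates 1 to 5 and 45.2, 38.5, 45.2, 37.0 and 28.8% in endometrium. The groups did not overlap, and the YS fluid replicate nearest to endometrium was replicate 4.

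eca-let-7a had 6172, 3096, 5878, 34769.5 and 8142 normalized CPM in YS fluid and 462968, 343843, 497954, 321755 and 299643 in endometrium (log2 fold change -5.07, standard error 0.64, FDR 6.39e-06). Without YS fluid replicate 4 its log2 fold change was -6.06 (FDR 9.14e-09). eca-let-7c and eca-let-7f, the next most abundant members, had log2 fold changes of -5.11 and -5.11, or -6.23 and -6.01 without replicate 4. How reads that match several family members were assigned is not given in the sources used here, so single members are less certain than the family.

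eca-miR-21 and eca-miR-26a were abundant in both groups and lower in YS fluid under every scaling. eca-miR-21, which is raised in many proliferating and inflamed tissues, was at 34298 ± 8799 normalized CPM in YS fluid and 278534 ± 35155 in endometrium (SD, n = 5, log2 fold change -3.02, standard error 0.33, FDR 1.89e-06), and was the single member of the miR-21 and miR-210 list. eca-miR-26a was at 19633 ± 6473 and 174406 ± 42705 (SD, n = 5, log2 fold change -3.15, standard error 0.36, FDR 2.62e-06). With library totals the log2 fold changes were -1.04 and -1.15. Of the 5 tested members of the miR-26 and miR-30 list, 3 were lower, only eca-miR-26a under every scaling, with a median of -1.29. Among all tested miRNAs 35.2% were lower, 17.3% under every scaling. eca-miR-30d, at -0.91, was not called. It was called lower in 9 alternatives, for example at -1.35 (FDR 0.00351) without YS fluid replicate 1, and higher with library totals, at 1.13 (FDR 0.00586).

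miRNAs of stroma, vessels and blood were scarce in YS fluid. Of the mesenchymal list, miR-199 and miR-214, all 5 members were lower, 4 under every scaling, with a median log2 fold change of -6.14, or -4.96 at the bound. For eca-miR-199b-5p, with 0 reads in YS fluid, a call could only be lower. eca-miR-199a-3p had 4, 2, 3, 6 and 7 reads in YS fluid and 3063, 1751, 4961, 1891 and 3093 in endometrium (log2 fold change -6.14, standard error 0.60, FDR 6.34e-07). eca-miR-199b-3p had almost the same counts, with a Bray-Curtis dissimilarity of 0.000902, and is not independent of it. Without YS fluid replicate 4, which held the highest level, the log2 fold change of eca-miR-199a-3p was -6.76.

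The smooth muscle miRNAs eca-miR-143 and eca-miR-145 were both lower under every scaling. eca-miR-143 had 311, 172, 538, 2473 and 303 normalized CPM in YS fluid and 17209.9, 12309, 16503, 19761 and 72007 in endometrium (log2 fold change -5.45, standard error 0.78, FDR 2.19e-05), with the highest value of each group, replicate 4 and replicate 5, far from the others. Without YS fluid replicate 4 its log2 fold change was -6.48. eca-miR-145 had 0 reads in YS fluid and 149 in endometrium, where its mean of 157 ± 90.4 normalized CPM (SD, n = 5) was under the mean floor of YS fluid, so no fold is given. It passed the low-count filter through endometrium alone, so that a call could only be lower. The list's median was -6.23, or -2.73 at the bound, for which eca-miR-145 was set to no change.

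The 2 endothelial arms were lower under every scaling. eca-miR-126-5p had 0, 0, 2, 1 and 1 reads in YS fluid and 3012, 1979, 1951, 1782 and 6535 normalized CPM in endometrium (log2 fold change -6.31, standard error 0.73, FDR 2.81e-06), or -7.12 without YS fluid replicate 3, and eca-miR-126-3p had a log2 fold change of -4.88, for a median of -5.60. All 7 tested immune miRNAs were lower, 6 under every scaling, with a median of -7.12, or -1.77 at the bound, since 5 of the 7 had no YS fluid read. Those 5 passed the low-count filter through endometrium alone, so that a call could only be lower. Against the mean YS fluid floor on the TMM scale, eca-miR-146a was at least 4.65-fold lower, eca-miR-223 at least 3.42-fold and eca-miR-142-5p at least 3.04-fold. These bounds apply to TMM only and were not computed under the other scalings. eca-miR-150 and eca-miR-142-3p were called by the test from endometrial means of 170.4 and 49.4 normalized CPM, under that floor, so no fold is given. The most abundant, eca-miR-155 and eca-miR-146b-5p, had 4, 2, 6, 4 and 9 and 1, 2, 1, 1 and 3 reads in YS fluid replicates 1 to 5 and log2 fold changes of -4.34 and -4.96.

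Red blood cell miRNAs were lower as well, 4 of 4, of which 2 under every scaling, with a median of -5.61, or -2.80 at the bound. For that bound, eca-miR-144 and eca-miR-486-3p were set to no change. eca-miR-486-5p had 2, 6, 2, 3 and 8 reads in YS fluid and 1530, 2813, 2963, 1602 and 273 in endometrium (log2 fold change -5.62, standard error 0.61, FDR 1.89e-06), and eca-miR-451 1, 2, 1, 3 and 0 and 324, 978, 469, 757 and 482 (log2 fold change -5.59, standard error 0.72, FDR 7.44e-06). The other pair, eca-miR-144 and eca-miR-486-3p, had no YS fluid read and was called from endometrial means of 56.1 and 103.02 normalized CPM, under the mean YS fluid floor, so no fold is given. This pair passed the low-count filter through endometrium alone, so that a call could only be lower. eca-miR-486-5p and eca-miR-451 did not overlap between the groups, and without YS fluid replicate 4 the log2 fold change of eca-miR-451 was -6.36. As shares of the reads, the red blood cell list lay between 0.0230 and 0.138% in YS fluid and between 0.267 and 1.13% in endometrium, the immune list between 0.0277 and 0.115% and 0.375 and 0.560%, and the mesenchymal list between 0.0277 and 0.299% and 1.08 and 2.26%. In a biopsy, fewer cells of a type and less RNA per cell cannot be told apart, and how far the makeup of the biopsy sets the other differences was not tested.

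**Figure D4:**
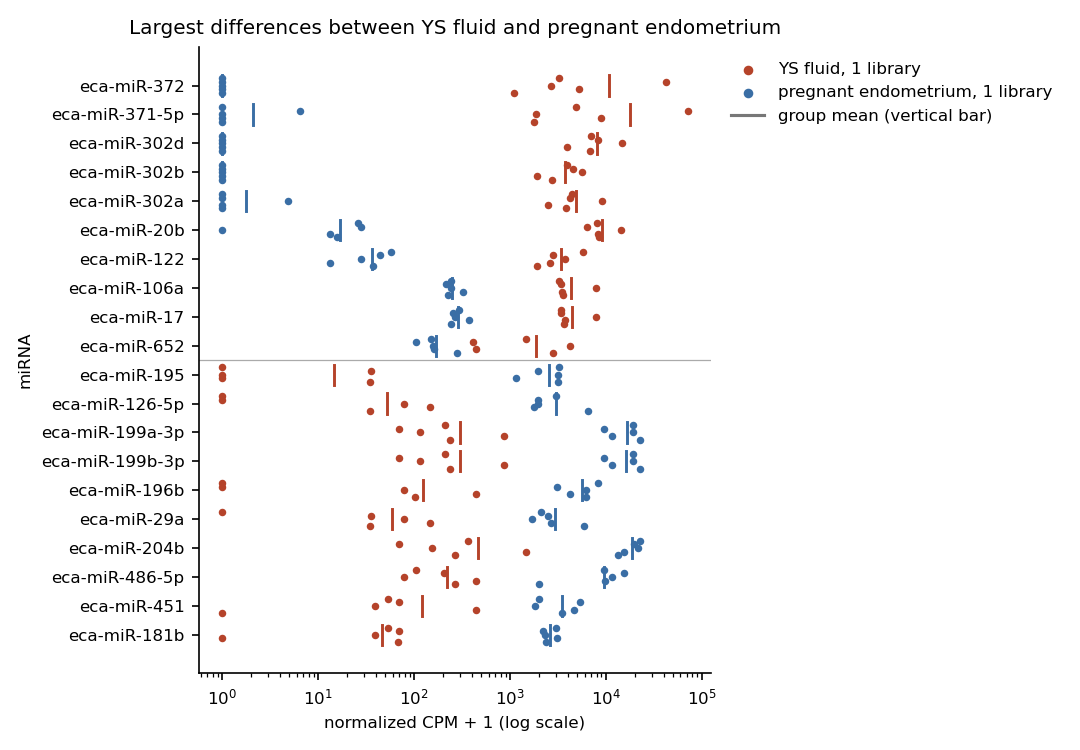
Normalized CPM plus 1 (horizontal, log scale) in each of the 5 YS fluid and 5 pregnant endometrial libraries (points) and the group means (vertical bars) for the 10 known miRNAs of largest increase and the 10 of largest decrease with a mean of at least 1000 in the higher group and no overlap. The YS fluid points of eca-miR-371-5p and eca-miR-372 spread far more than those of the miR-302 members.

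eca-miR-195 had the largest decrease of the abundant miRNAs. It had 0, 1, 0, 0 and 1 reads in YS fluid and 516, 358, 811, 190 and 435 in endometrium, where it was 2534 ± 932 normalized CPM (SD, n = 5), and the ratio of endometrium to YS fluid over pooled scaled reads was 142.3 (95% exact binomial interval 39.4 to 1176). Its log2 fold change was -7.06 (FDR 5.55e-07), or -7.77 without YS fluid replicate 2 and -7.84 without replicate 5, which held 1 read each. It belongs to the miR-15/16 family, whose members restrain the cell cycle, and of the family's 5 tested members 4 were lower, 3 under every scaling, with a median of -4.65. The exception was eca-miR-16, the most abundant member, at 11205 ± 3449 normalized CPM in YS fluid and 17327 ± 1319 in endometrium (SD, n = 5, log2 fold change -0.63, standard error 0.31, FDR 0.0975). It was called higher with library totals, at 1.41 (FDR 9.34e-04), and thinning, at 1.03 (FDR 0.0259). Lower calls came without YS fluid replicate 1 or 3, at -1.10 and -1.13, and with no low-count filter, at -1.01 (FDR 0.0119).

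Several other families abundant in endometrium were lower. All 5 tested miR-23, miR-24 and miR-27 members were lower under every scaling, with a median of -4.39, and eca-miR-27b, for example, was at 1576 ± 1169 normalized CPM in YS fluid and 44618 ± 5534 in endometrium (SD, n = 5, log2 fold change -4.91, standard error 0.46, FDR 5.55e-07), with eca-miR-24 at a log2 fold change of -4.39. Both miR-181 members were lower under every scaling, with log2 fold changes of -5.59 for eca-miR-181b and -4.57 for eca-miR-181a (-5.46 without YS fluid replicate 4), for a median of -5.08. All 3 miR-29 members, which target collagen transcripts, were lower, 2 under every scaling, with a median of -5.97. eca-miR-29a had 0, 1, 2, 1 and 1 reads in YS fluid and 2106, 2486, 1710.1, 2685 and 5870.4 normalized CPM in endometrium (log2 fold change -5.97, standard error 0.63, FDR 1.46e-06), and eca-miR-29c a single YS fluid read, for a ratio of endometrium to YS fluid of 75.5 (95% exact binomial interval 13.5 to 2989). eca-miR-29b had no YS fluid read and an endometrial mean of 36.7 normalized CPM, under the floor of every YS fluid library, at which fewer than 3 reads would be expected in each, so no fold is given. Its call could only be lower, since it passed the low-count filter through endometrium alone.

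Of the miR-10, miR-99, miR-100 and miR-125 list, whose miR-10 members lie within the Hox gene clusters, 7 of 8 were lower, 5 under every scaling, with a median of -4.40, or -3.18 at the bound. For eca-miR-99a, with 0 reads in YS fluid, a call could only be lower. eca-miR-10a had 1556, 826, 1037, 10038 and 1918 normalized CPM in YS fluid and 51648, 130855, 102918, 56738 and 66005 in endometrium (log2 fold change -4.82, standard error 0.70, FDR 2.34e-05), and eca-miR-10b had a log2 fold change of -4.18. YS fluid replicate 4 held the most of both, and without it the log2 fold changes were -5.93 and -4.90. eca-miR-196b, another miRNA of the Hox clusters, had 0, 0, 2, 3 and 3 reads in YS fluid and 1330, 565, 1600, 681 and 852 in endometrium (log2 fold change -6.13, standard error 0.72, FDR 3.31e-06), or -6.87 without YS fluid replicate 4. eca-miR-204b had 7, 2, 4, 10 and 8 and 3666, 3581, 5626, 2502 and 1842 (log2 fold change -5.69, standard error 0.64, FDR 2.33e-06), or -6.47 without that replicate.

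The family of miR-34 and miR-449, which is required for motile cilia, was lower in 5 of 6 members, 3 under every scaling, with a median of -3.12. eca-miR-449a was at 829.9, 241, 461, 2182 and 505 normalized CPM in YS fluid and 10179.7, 12821, 6724, 18095 and 6834 in endometrium (log2 fold change -3.87, standard error 0.56, FDR 2.34e-05), and eca-miR-34c had a log2 fold change of -3.54, or -4.41 without YS fluid replicate 4. The groups did not overlap for either.

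Epithelial miRNAs did not move as a group. Of the 6 tested members of the miR-200 family and miR-205, 3 were lower under TMM and only eca-miR-141 under every scaling, with a median of -1.91 with TMM and 0.038 with library totals. The share lower over all tested miRNAs was 35.2% under TMM and 17.3% under every scaling. eca-miR-200b was at 26244, 13211, 28238, 27205 and 21903 normalized CPM in YS fluid and 32451, 34975, 33227, 36547 and 37697 in endometrium (log2 fold change -0.58, standard error 0.31, FDR 0.125). It was called higher with library totals, at 1.44 (FDR 5.46e-04), and thinning, at 1.13 (FDR 0.00757), and lower without YS fluid replicate 1 or 3, at -1.08 and -1.01. eca-miR-200c had a log2 fold change of -1.69 with TMM and 0.32 with library totals. eca-miR-141, from the cluster of eca-miR-200c, had 10, 5, 7, 5 and 8 reads in YS fluid and 1181, 3317, 2701, 1521 and 4224 in endometrium (log2 fold change -5.43, standard error 0.56, FDR 1.17e-06). The family took 11.8, 4.87, 11.1, 8.50 and 8.71% of the reads in YS fluid and 5.31, 6.38, 4.92, 6.94 and 7.21% in endometrium, ranges that overlap.

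The miR-183 cluster, which is known for sensory epithelia, had 1 of 3 members lower, eca-miR-96 with 2 YS fluid reads, and 0 under every scaling, near the share lower over all tested miRNAs. The cluster held between 0.582 and 1.46% of the reads in YS fluid and between 0.169 and 0.322% in endometrium, without overlap. eca-miR-182 was at 4701 ± 1699 normalized CPM in YS fluid and 4519 ± 785 in endometrium (SD, n = 5, log2 fold change 0.045, standard error 0.33, FDR 0.924), and eca-miR-183 had a log2 fold change of -0.41 (FDR 0.616). The sign of eca-miR-183 turned under other scalings, and that of eca-miR-182 turned when single libraries were left out. eca-miR-182 was called higher with library totals, at 2.06 (FDR 9.55e-05), thinning, at 1.61 (FDR 0.0025), and TMM from abundant miRNAs, at 1.36 (FDR 0.00211).

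The imprinted DLK1-DIO3 locus, the largest miRNA cluster of placental mammals, held 53 known miRNAs, of which 30 were tested. Of these, 3 were higher, 6 lower and 21 not called, and 2 and 3 were called under every scaling, with a median of -0.57, or -0.33 at the bound. Both shares lay below the 17.9% higher and 35.2% lower of all tested miRNAs. The locus held 0.488, 3.39, 0.176, 0.345 and 0.103% of the reads in YS fluid replicates 1 to 5 and 0.703, 0.365, 0.527, 0.357 and 0.696% in endometrium, so that replicate 2 lay above every endometrial library. eca-miR-379 had 104, 895, 76.8, 145.5 and 101 normalized CPM in YS fluid and 3781, 1477, 3327, 1358 and 2745 in endometrium (log2 fold change -3.15, standard error 0.64, FDR 5.92e-04), or -4.87 without replicate 2. eca-miR-127 had a log2 fold change of -3.45, or -4.57 without replicate 2.

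miRNAs of neighbouring genes were compared by their calls. In the RefSeq annotation of the assembly TB-T2T, 240 of the 241 tested known miRNAs matched a gene by name and 219 matched a single one, which gave 29 groups of genes at most 10000 bases apart that held 104 of them. At least 2 members were called in 23 groups, in 20 of these in 1 direction only, where 120 of all calls were lower and 61 higher, so that nothing is read from this count. The group of the miR-302 members and eca-miR-367 had 5 of 5 members higher, the group of eca-miR-363, eca-miR-20b and eca-miR-106a 3 of 3, and that of eca-miR-17, eca-miR-18a, eca-miR-19a and eca-miR-20a 3 of 4. The groups of eca-miR-195 with eca-miR-497, eca-miR-143 with eca-miR-145, eca-miR-99a with eca-let-7c, and eca-miR-23b with eca-miR-27b had both members lower. The group of eca-miR-25, eca-miR-93 and eca-miR-106b was split, with 1 higher, 1 lower and 1 not called. Neighbours share transcripts and are not independent of each other.

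Among predicted miRNAs, which are named by their number in the deposited table, 25 were higher and 12 lower of the 100 tested. The shares over all tested miRNAs were 17.9% and 35.2%. pred-miR-81 had 13, 30, 1, 3 and 7 reads in YS fluid and 0, 1, 0, 2 and 0 in endometrium, a ratio of pooled scaled reads of 146.1 (95% exact binomial interval 47.4 to 730.3). pred-miR-64 had 21, 8, 4, 10 and 6 and 3, 1, 1, 0 and 0 (log2 fold change 6.39, standard error 0.90, FDR 2.01e-05), or 5.50 without YS fluid replicate 1, and pred-miR-133 had 6, 9, 4, 1 and 1 against 1 read. In the other direction, pred-miR-136 had 104, 103.2, 76.8, 145.5 and 168 normalized CPM in YS fluid and 1194, 1090.2, 2616, 1303 and 1402 in endometrium (log2 fold change -3.69, standard error 0.45, FDR 5.05e-06) and was called under every scaling. pred-miR-24 and pred-miR-143, with 1 and 0 YS fluid reads, were called under TMM and lost with library totals. The single YS fluid read of pred-miR-24 was in replicate 5.

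Some known miRNAs had reads in 1 group only. Of 690 known miRNAs, 227 had a read in both groups, 20 in YS fluid only and 81 in endometrium only. Of the 20, 6 had more than 3 reads, which were eca-miR-372, eca-miR-302d, eca-miR-302b, eca-miR-767-5p, eca-miR-18b and eca-miR-367. Of the 81, 10 had an endometrial mean above the floor of the deepest YS fluid library, among them eca-miR-146a, eca-miR-199b-5p, eca-miR-223, eca-miR-142-5p and eca-miR-99a. On the TMM scale, eca-miR-199b-5p was at least 4.20-fold and eca-miR-99a at least 2.39-fold lower in YS fluid. For the remaining ones the endometrial mean was below that floor, and no fold is given. Some of them, such as eca-miR-142-3p, eca-miR-144 and eca-miR-29b, were called lower by the test, but none of these calls held under every scaling.

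Levels in the embryo and in UF placed these miRNAs, from a single fit of the 20 pregnant libraries in which the contrasts share the YS fluid libraries. Between YS fluid and embryo, 31.5% of 400 tested miRNAs were called, and between YS fluid and UF, 46.0%. With the replicate block the number called against embryo fell to 73. eca-miR-302d was at 7815 ± 3936 normalized CPM in YS fluid, 5836 ± 2480.2 in embryo and 3.69 ± 8.26 in UF (SD, n = 5, scaled over these 20 libraries), with 0 reads in endometrium. All 10 miRNAs of largest increase over endometrium were also higher than in UF, which had been extracted with the same kit, with log2 fold changes between 3.21 and 13.0. Of the same 10, only eca-miR-20b and eca-miR-652 were called against embryo, with log2 fold changes of 1.96 (FDR 0.00675) and 1.59 (FDR 0.0418), and eca-miR-652 lost this call without YS fluid replicate 3 or 5, with the replicate block and with only the 2 groups fitted, while eca-miR-122 was also called with RLE. For the other 8 the FDR was above 0.05, which does not show equal levels. Without YS fluid replicate 2, eca-miR-372 was lower in YS fluid than in embryo, with a log2 fold change of -1.49 (FDR 0.047) in place of 0.80.

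eca-miR-92a differed from both. It was at 104147 ± 33824 normalized CPM in YS fluid, 14479 ± 4853 in embryo and 12859 ± 2981 in UF (SD, n = 5), with log2 fold changes of 2.85 against embryo (FDR 7.20e-07) and 3.02 against UF (FDR 1.74e-08). The miR-17/92 group held between 4.83 and 7.50% of the reads in embryo and between 3.08 and 6.72% in UF, all below the YS fluid libraries.

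Of the 10 miRNAs of largest decrease, 0 were called between YS fluid and embryo (1 with RLE, eca-miR-204b), and 8 were lower in YS fluid than in UF (6 with RLE, which lost eca-miR-195 and eca-miR-196b), the exceptions being eca-miR-126-5p and eca-miR-451. The latter, at -1.43 (FDR 0.127) against UF, was called lower without YS fluid replicate 4, at -2.38 (FDR 0.0223). Several of the 10 had few YS fluid reads, such as 2 of eca-miR-195 and 4 of eca-miR-126-5p. The lack of calls against embryo therefore does not show equal levels. eca-let-7a was at 8730.2 ± 6686 normalized CPM in YS fluid, 3909 ± 1944 in embryo, 279263 ± 59187 in UF and 379997 ± 85963 in endometrium (SD, n = 5). Against embryo it was higher in YS fluid, with a log2 fold change of 1.15 (FDR 0.032), or 0.61 (FDR 0.213) without YS fluid replicate 4, and lost this call too with only the 2 groups fitted, and it was lower than in UF, with -5.01 (FDR 6.66e-09). The let-7 family held between 0.467 and 1.71% of the reads in embryo, and YS fluid replicate 4, at 11.6%, was the library of either group with the most. The family of miR-34 and miR-449 held between 4.93 and 7.22% of the reads in UF and between 0.111 and 0.896% in YS fluid.

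**Figure D5:**
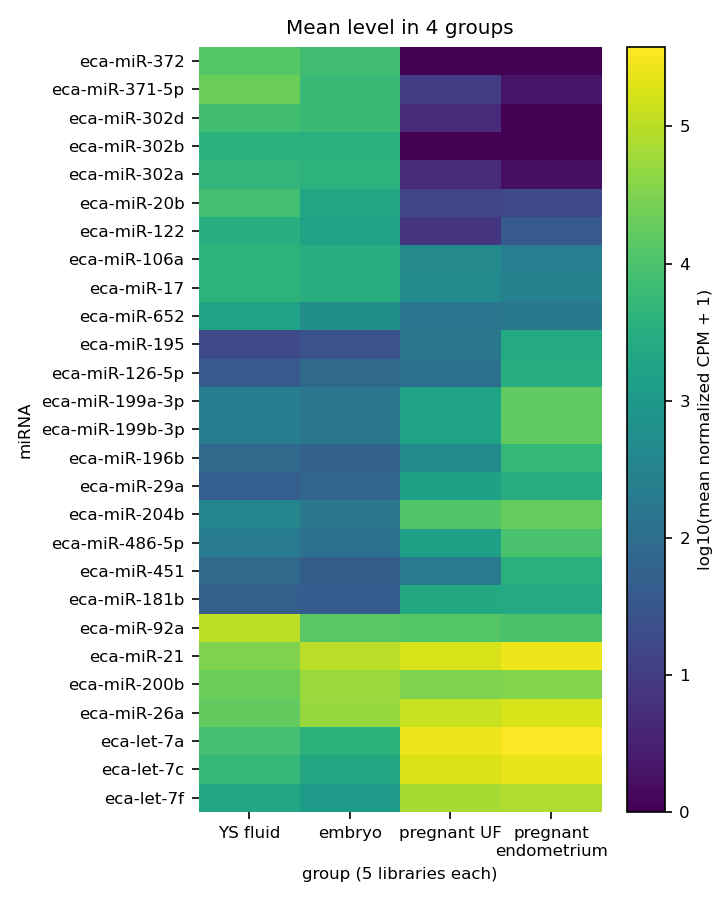
Mean level as log10 of normalized CPM plus 1 (colour) of the named miRNAs (rows) in YS fluid, embryo, pregnant UF and pregnant endometrium (columns), 5 libraries each. The miR-302, miR-371 and miR-372 rows are bright in YS fluid and embryo and dark in UF and endometrium, and the let-7 rows are brightest in UF and endometrium.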

How the data were processed

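Small RNA libraries of horse samples were sequenced by the authors, who trimmed adapters (cutadapt 1.11, per the submitters' processing notes) and matched reads to known horse miRNAs and to miRNAs predicted on the genome EquCab2.0. The deposited table holds raw read counts of 690 known and 154 predicted miRNAs in 28 libraries. How reads that match several miRNAs were assigned is not given in the sources used here.

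The 5 YS fluid and 5 pregnant endometrial libraries were compared with edgeR 4.0.16 (R 4.3.3), by TMM scaling and the quasi-likelihood test, for miRNAs that reached 1 CPM in 5 or more libraries. The calling thresholds were a Benjamini-Hochberg adjusted p (FDR) of 0.05 and a 2-fold difference. The common biological coefficient of variation was 52.8%. Fold changes, their standard errors and FDR come from this fit, and levels are normalized CPM. Against a group with 0 reads a bound was computed from 3 reads per library, and with 1 to 3 reads a ratio of pooled scaled reads was given with its exact binomial interval. Intervals and floors cover counting error only. Library measures were compared by exact permutation tests (Python 3.11.15, scipy 1.17.1). Embryo and UF were compared with YS fluid in a fit of the 20 pregnant libraries. The code was run on simulated counts, where limits on recovery and false calls were required only for the scaling used to draw the counts, not for TMM or RLE.

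Named were the 10 known miRNAs of largest increase and of largest decrease among those called with a mean of at least 1000 normalized CPM in the higher group and no overlap, the 5 of highest level in each group, the 2 of highest level in each of 26 lists, and the 3 predicted miRNAs of largest change in each direction with at least 100 normalized CPM. Other members of lists are named where a count turns on them. The comparison, the members and the lists were chosen with earlier results of these data known.

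The samples of all groups came from the same 5 mares, and equal replicate numbers were taken to mark 1 mare, which the labels do not spell out. Same-numbered libraries did not deviate together, with a mean correlation of deviations of -0.0647 (from -0.239 to 0.114) over 45 miRNAs, and 1 of 5 correlated best with its own number. Alternatives were other scalings (DESeq2 1.42.0 among them), filters, tests, thinning, the replicate block and leaving out each library. TMM from abundant miRNAs, and leaving out YS fluid replicates 2 and 4 together, were chosen after seeing the data.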

Additional observations from a re-analysis of the deposited data

Results flagged for a closer look

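Each named miRNA was checked in each group for a library far from the other 4, by Dixon's ratio of the gap to the range at its 95% critical value of 0.71. Of 116 groups, 31 held such a library, and 12 of the 31 concerned YS fluid replicate 4 and 6 YS fluid replicate 2. Chance flags about 1 group in 20 only where values are normal and groups independent. Scaled read counts need not be normal, and some of the miRNAs have near-identical counts, so no excess over chance is read from the 31. Values are normalized CPM, with the range of the other 4 libraries of the group.

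YS fluid replicate 4, the library of lowest depth, was highest for eca-miR-199a-3p (873, other replicates 68.8 to 236), eca-miR-199b-3p (873, other replicates 68.8 to 236), eca-miR-204b (1455, other replicates 68.8 to 363.1), eca-let-7a (34769.5, other replicates 3096 to 8142), eca-let-7c (23131, other replicates 1445 to 4307), eca-let-7f (7419, other replicates 550.5 to 1615), eca-miR-34c (2182, other replicates 103.2 to 519), eca-miR-143 (2473, other replicates 172 to 538), eca-miR-10a (10038, other replicates 826 to 1918), eca-miR-10b (8729, other replicates 1716 to 2075), eca-miR-27b (3637, other replicates 757 to 1306) and eca-miR-181a (2182, other replicates 34.4 to 571). YS fluid replicate 2 was highest for eca-miR-372 (41973, other replicates 1110.3 to 5237), eca-miR-371-5p (71044, other replicates 1783 to 8874), eca-miR-379 (895, other replicates 76.8 to 145.5), eca-miR-127 (585, other replicates 101 to 153.7), eca-miR-221 (7018, other replicates 404 to 1164) and eca-miR-222 (2099, other replicates 0 to 436). YS fluid replicate 3 was highest for eca-miR-302a (9221, other replicates 2473 to 4409), eca-miR-20b (14369, other replicates 6399 to 8411), eca-miR-106a (7799, other replicates 3216 to 3600.0) and eca-miR-17 (7914, other replicates 3423 to 3782).

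Among the endometrial libraries, replicate 5 was highest for eca-miR-126-5p (6535, other replicates 1782 to 3012), eca-miR-29a (5870.4, other replicates 1710.1 to 2685), eca-miR-143 (72007, other replicates 12309 to 19761), eca-miR-29c (1803, other replicates 369.2 to 608) and eca-miR-1 (299.4, other replicates 21.8 to 81.2). Replicate 3 stood apart for eca-miR-181a (9864, other replicates 13804 to 14839) and pred-miR-136 (2616, other replicates 1090.2 to 1402), replicate 2 for eca-miR-183 (294, other replicates 73.8 to 117) and replicate 4 for eca-miR-222 (1032, other replicates 443 to 599.6).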

How the results depend on the processing

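The count of miRNAs higher in YS fluid was 61, and was 119 with library totals and 100 with abundant-miRNA TMM. The count lower was 120, and was 79 with DESeq2, 59 with library totals, 77 with filterByExpr, 48 with thinning and 69 with abundant-miRNA TMM. Leaving out single libraries gave 53 to 69 higher and 109 to 130 lower. With the replicate block 58 were higher, the count lower stayed within 1.5 times, and 73 miRNAs were called between YS fluid and embryo, where 31.5% of 400 were called without it. No call of a named miRNA between YS fluid and endometrium was lost under the block. The cause of these shifts was not tested.

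Of 53 named miRNAs called, 43 kept their call under each of the alternatives that gave a value, and 10 lost it at least once, eca-miR-200c with a turned sign. Log2 fold changes of turned sign, of miRNAs that were not called except eca-miR-200c, were as follows. With DESeq2, eca-miR-200b 0.19, eca-miR-25 0.11, eca-miR-183 0.36, eca-miR-16 0.15, eca-miR-148b-3p 0.65, eca-miR-222 0.76 and eca-miR-191a 0.66. With RLE, eca-miR-200b 0.19, eca-miR-25 0.11, eca-miR-183 0.37, eca-miR-16 0.15, eca-miR-148b-3p 0.64, eca-miR-222 0.78 and eca-miR-191a 0.67. With library totals, eca-miR-200b 1.44, eca-miR-25 1.32, eca-miR-200c 0.32, eca-miR-183 1.55, eca-miR-30d 1.13, eca-miR-16 1.41, eca-miR-148b-3p 1.82, eca-miR-222 1.86, eca-miR-191a 1.90, eca-miR-1 0.77 and eca-miR-9a 1.21. With filterByExpr, eca-miR-200b 0.040, eca-miR-183 0.17, eca-miR-148b-3p 0.47, eca-miR-222 0.60 and eca-miR-191a 0.54. With known miRNAs only, eca-miR-200b 0.18, eca-miR-25 0.086, eca-miR-183 0.26, eca-miR-16 0.12, eca-miR-148b-3p 0.52, eca-miR-222 0.47 and eca-miR-191a 0.68. With thinning, eca-miR-200b 1.13, eca-miR-25 1.09, eca-miR-183 1.91, eca-miR-30d 0.85, eca-miR-16 1.03, eca-miR-148b-3p 1.69, eca-miR-222 2.18, eca-miR-191a 1.47 and eca-miR-9a 1.17. With abundant-miRNA TMM, eca-miR-200b 0.78, eca-miR-25 0.70, eca-miR-183 0.92, eca-miR-30d 0.48, eca-miR-16 0.76, eca-miR-148b-3p 1.24, eca-miR-222 1.36, eca-miR-191a 1.24, eca-miR-1 0.22 and eca-miR-9a 0.60. With no low-count filter, eca-miR-182 -0.35 and eca-miR-128 -0.16. With the replicate block, eca-miR-182 -0.0080. With 20 libraries in 1 fit, eca-miR-182 -0.080 and eca-miR-222 0.10. With YS fluid replicates 2 and 4 left out, eca-miR-182 -0.11 and eca-miR-128 -0.12. With 28 libraries in 1 fit, eca-miR-191a 0.052. Over the fits without 1 library, values that turned at least once were eca-miR-182 between -0.48 and -0.031, eca-miR-222 between -2.79 and 0.35 and eca-miR-128 between -0.20 and 0.27. Against embryo, those without 1 YS fluid library were eca-miR-372 between -1.49 and 0.92, eca-miR-371-5p between -0.65 and 2.00, eca-miR-302b between -0.13 and 0.27, eca-miR-302a between -0.14 and 0.44, eca-miR-199a-3p between -0.0054 and 0.73, eca-miR-199b-3p between -0.0054 and 0.73, eca-miR-196b between -0.16 and 0.92 and eca-miR-451 between -0.12 and 1.12, and eca-miR-372 -0.58 with the replicate block.

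The depth of YS fluid limits decreases most, since 40 tested miRNAs had no YS fluid read, 26 of them called lower. Depth, kit and sample type cannot be told apart between the groups.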

Other observations

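In the remaining lists, 3 of 6 and 1 of 2 tested members were called in the first pair described here and 0 in the others, against 53.1% of all miRNAs tested. Of 6 tested members of the miR-130, miR-148 and miR-301 list, eca-miR-130b was higher under every scaling, with a log2 fold change of 4.45 and 60 reads in YS fluid against 20 in endometrium, and 2 were lower, 0 of them under every scaling, with a list median of -1.08. eca-miR-148a had -2.64 and eca-miR-148b-3p -0.20, the latter not called. It was called higher with library totals, at 1.82 (FDR 7.63e-04), thinning, at 1.69 (FDR 0.00492), and TMM from abundant miRNAs, at 1.24 (FDR 0.017). Of miR-221 and miR-222, eca-miR-221 was lower at -2.31 and -4.10 without YS fluid replicate 2, and lost its call in 5 alternatives, while eca-miR-222 was not called at -0.091, with a median of -1.20, and YS fluid replicate 2 held the most reads of both. Without replicate 2 eca-miR-222 was called lower, at -2.79 (FDR 0.00174), and at -3.47 (FDR 7.25e-04) without replicates 2 and 4.

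None of the 3 tested miRNAs often used as references in fluids was called under TMM, with log2 fold changes of -0.077 for eca-miR-191a, -0.46 for eca-miR-423-3p and 0.85 for eca-miR-423-5p. This depended on scaling, filter and libraries. In 8 alternatives eca-miR-423-5p was called higher, for example with RLE, at 1.63 (FDR 0.00269), DESeq2, at 1.63 (FDR 2.24e-04), and library totals, at 2.94 (FDR 1.45e-05). With TMM kept, it was called with filterByExpr, at 1.45 (FDR 0.00397), known miRNAs only, at 1.57 (FDR 0.00345), and without endometrial replicate 3, at 1.13 (FDR 0.0368). eca-miR-191a was called higher with library totals, at 1.90 (FDR 1.05e-04), thinning, at 1.47 (FDR 0.00698), and TMM from abundant miRNAs, at 1.24 (FDR 0.00401). Of the muscle list, eca-miR-1 alone was tested and was not called, with 4 reads in YS fluid and 73 in endometrium. The 4 tested neural miRNAs were not called under TMM either, with log2 fold changes of -0.84 for eca-miR-9a and 0.18 for eca-miR-128. eca-miR-9a was called lower in 2 alternatives, for example without YS fluid replicate 2, at -1.64 (FDR 0.0028), and higher with library totals, at 1.21 (FDR 0.031). eca-miR-128 was called higher with library totals, at 2.17 (FDR 6.92e-05), thinning, at 2.03 (FDR 0.00109), and TMM from abundant miRNAs, at 1.59 (FDR 7.69e-04).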
